A study of Arabidopsis thaliana with 5 samples.

Results

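The Aux/IAA and GH3 genes of Arabidopsis thaliana were followed in whole seedlings of the Atino80-5 mutant and of wild type. The set held 37 loci, defined by gene family with earlier results of these data known: all 29 Aux/IAA genes and 8 GH3 genes, GH3.1 to GH3.6, GH3.9 and GH3.17. Of these, 34 were matched to a probe of the array through the RefSeq transcripts, and 33 entered the test, among 26657 genes and unnamed transcripts in all. IAA9 (AT5G65670), IAA15 (AT1G80390) and IAA32 (AT2G01200) matched no probe under the accessions used here. GH3.4 (AT1G59500) had a probe that was well above background on 0 of the 5 arrays, with signals of 2.34 to 4.30, and was not tested.

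Seedlings 12 days old had been raised on MS plates with a long photoperiod, and their RNA was hybridised to 5 single-colour Agilent arrays, 2 of wild type and 3 of Atino80-5. The mutant is named after INO80, a chromatin remodelling ATPase gene; the labels give the mutant no other allele, accession background or treatment, and both genotypes had the same age and growth conditions. The labels do not say whether arrays of a genotype came from separately grown seedlings, so the spread behind the p-values is that of these arrays and may be technical. A probe of INO80 was 161-fold lower on the arrays labelled Atino80-5, with signals of 63.6, 54.3 and 59.8 against 9623 and 9473. Another INO80 probe was 3.73-fold higher in the mutant, at 466 to 516 against 135 and 126. The position of these probes and of the mutation is not given in the sources used here. Whole seedlings mix organs, and a change in the number of cells of a type cannot be told apart from a change of RNA per cell.

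Aux/IAA proteins are short-lived repressors. They bind auxin response factors (ARFs) on the promoters of auxin-responsive genes and recruit co-repressors of the TOPLESS family. Auxin holds an Aux/IAA protein and an F-box receptor of the TIR1/AFB family together through a degron in the Aux/IAA protein, which is then ubiquitinated and degraded. Many Aux/IAA genes are themselves early targets of auxin, which forms a negative feedback. The GH3 genes studied here encode enzymes that join indole-3-acetic acid to amino acids, and several of them are also rapidly induced by auxin.

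Most members that changed were higher in the mutant, and the changes were small. Of the 33 tested, 18 were higher in Atino80-5, 5 were lower and 10 were not called at an adjusted p under 0.05 (limma, Benjamini-Hochberg over all genes). Over all genes tested, 57.2% were called: 30.5% higher and 26.7% lower, against 54.5% and 15.2% of the members. IAA6 had the largest rise, 2.27-fold, and was the only member that changed by 2-fold or more. Under the stricter rule that also asked for a log2 change of at least 0.5, 8 members were higher and 0 were lower, while 12.2% and 7.11% of all genes passed that rule in the 2 directions. GH3.5 lay just inside that limit with a rise of 0.520, and IAA29 and IAA20 just outside it with 0.498 and 0.490. The members higher under this rule numbered 6 with normexp and 6 with median scaling. The arrays of the genotypes did not overlap for 28 members, or 84.8%, against 74.7% of all genes.

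The median log2 change was 0.24 over the 26 Aux/IAA genes tested and 0.17 over the 7 GH3 genes tested, beside 0.005 over all genes tested. Members share arrays and are not replicates of a condition, so these medians are descriptions without a test. Signals below are processed intensities scaled so that every array has the same 75th percentile, and they are not compared between probes. Each change is the mutant mean less the wild type mean, in log2 units, with its standard error (SE, 2 and 3 arrays).

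**Figure D1:**
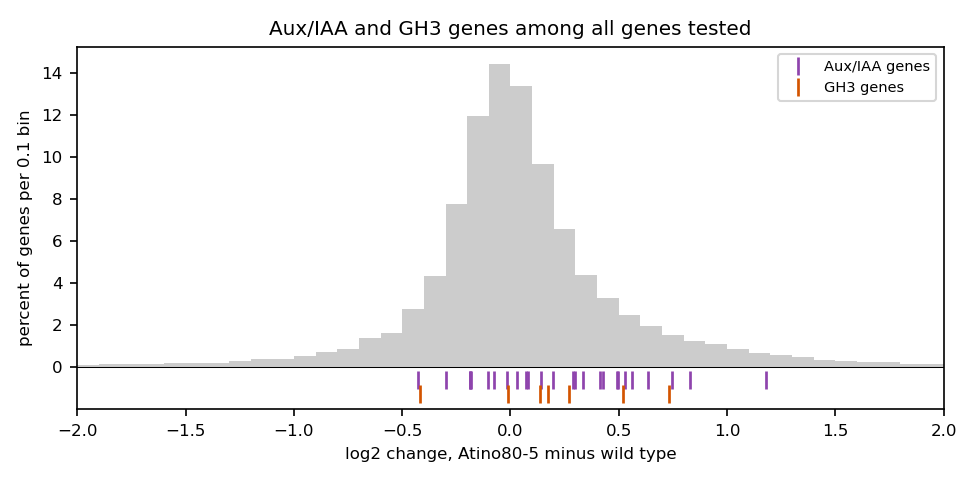
Log2 change between Atino80-5 and wild type, with grey bars for the percent of all 26657 genes tested in bins of 0.1 and ticks below for the 26 Aux/IAA and 7 GH3 genes. The axis is limited to changes of at most 2, and most ticks lie to the right of 0, with IAA6 at 1.18 as the highest.

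The closely related genes IAA1 to IAA4 are among the classical early auxin-induced genes. IAA3 (AT1G04240, SHY2), whose product limits the root meristem where cytokinin and auxin signalling meet, had signals of 5042, 5609 and 5512 on the mutant arrays against 3123 and 3290 on the wild type arrays. All 3 mutant arrays lay above both wild type arrays. The level rose by 0.75 ± 0.060, or 1.68-fold (adjusted p = 0.00070, limma). IAA1 (AT4G14560, AXR5) had signals of 5193 and 5212 against 7006, 6999.4 and 6999.7, a rise of 0.43 ± 0.024 (adjusted p = 0.00025), without overlap. IAA2 (AT3G23030) rose by 0.34 ± 0.045 (adjusted p = 0.0035), from 30790 and 32599 to between 39038 and 41576. IAA4 (AT5G43700) was not called: its signals of 14418 and 14435 in wild type and 15042 to 15435 in the mutant did not overlap, but the log2 change was 0.08 (adjusted p = 0.052). It was called with quantile normalization (adjusted p = 0.0138), in the authors' value table (adjusted p = 0.0135) and with a trended, robust eBayes (adjusted p = 0.025).

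IAA5, IAA6 and IAA19 form another related group of auxin-induced genes, and its members moved in different directions. IAA6 (AT1G52830, SHY1), known from mutants with altered hypocotyl growth, had signals of 217.9, 216.1 and 228.2 on the mutant arrays against 94.6 and 100.0 on the wild type arrays. Every mutant array was more than double either wild type array. The level rose by 1.18 ± 0.042 (adjusted p = 8.5e-05), higher than 96.5% of all genes tested. With normexp the rise was 0.85. IAA19 (AT3G15540, MSG2), which acts with ARF7 in hypocotyl bending towards light, rose by 0.41 ± 0.034, from 838.8 and 878.2 to between 1126 and 1159. IAA5 (AT1G15580) fell: the mutant arrays gave 178.1, 201.4 and 191.9 against 251.0 and 260.4. Its log2 change was -0.43 ± 0.061 (adjusted p = 0.0044), the largest decrease among the members.

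The group of IAA7, IAA14, IAA16 and IAA17 holds repressors whose stabilised forms give strong auxin resistance. IAA17 (AT1G04250, AXR3), whose dominant mutants lose normal root gravitropism and root hairs, had signals of 20906, 20468 and 20216 on the mutant arrays against 13084 and 13375 on the wild type arrays. It rose by 0.63 ± 0.030, or 1.55-fold (adjusted p = 0.00016), without overlap. IAA14 (AT4G14550, SLR), whose stabilised form blocks lateral root initiation, had signals of 3417 and 3518 against 4830, 5008 and 5532. Its rise was 0.56 ± 0.067 (adjusted p = 0.0024), and the mutant arrays varied more than those of wild type, with SDs of 0.101 and 0.030 on the log2 scale. IAA7 (AT3G23050, AXR2) rose by 0.29 ± 0.025 (adjusted p = 0.00086). IAA16 (AT3G04730) did not pass the test, with a log2 change of -0.02 (adjusted p = 0.70), and its signals overlapped at 55306 and 56254 in wild type and 54150 to 56945 in the mutant.

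IAA10 to IAA13 are related genes that include BODENLOS (IAA12); 0 of them were called higher, 2 were lower and 2 were not called. IAA13 (AT2G33310) had signals of 7299, 6959 and 6824 on the mutant arrays against 8497 and 8795 on the wild type arrays. It fell by 0.30 ± 0.041 (adjusted p = 0.0038), without overlap. IAA11 (AT4G28640) fell by 0.19 ± 0.032 (adjusted p = 0.0073), and lost its call without wild type array 1 (adjusted p = 0.052). IAA10 (AT1G04100) had a log2 change of -0.19 that did not pass (adjusted p = 0.083), with mutant signals spread from 1212 to 1396 against 1492 and 1526. It passed under 6 alternatives, among them median scaling (log2 change -0.25). IAA12 (AT1G04550), which with the ARF MONOPTEROS controls formation of the embryonic root, had overlapping signals of 4760 to 4853 and 4742 to 5011 and a log2 change of 0.03 (adjusted p = 0.53).

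Of the remaining canonical Aux/IAA genes, IAA28 changed the most. IAA28 (AT5G25890), a repressor of lateral root formation, had signals of 3159, 3426 and 3236 on the mutant arrays against 2227 and 2308 on the wild type arrays. The groups did not overlap, and the level rose by 0.53 ± 0.046 (adjusted p = 0.00091). IAA29 (AT4G32280), which is induced in shade by phytochrome-interacting factors, rose by 0.50 ± 0.033, from 747 and 749 to between 1025 and 1081. IAA8 (AT2G22670) rose by 0.30 ± 0.054 (adjusted p = 0.0093) and lost its call without wild type array 2 (adjusted p = 0.058). IAA18 (AT1G51950) fell by 0.18 ± 0.030 (adjusted p = 0.0068), from 9207 and 9325 to between 8048 and 8356. The genes for the phytochrome-associated proteins IAA26 (AT3G16500) and IAA27 (AT4G29080) had log2 changes of -0.08 and 0.07, and neither passed the test. IAA26 was called lower with median scaling (-0.13, adjusted p = 0.015), normexp (-0.10, adjusted p = 0.046) and a trended, robust eBayes (adjusted p = 0.048).

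Several Aux/IAA proteins lack the degron or carry an incomplete one and are more stable than the others: IAA20, IAA30, IAA31, IAA32, IAA33 and IAA34. Of the 5 tested, 2 were higher and 3 were not called. IAA33 (AT5G57420) had signals of 37.2, 40.9 and 35.3 on the mutant arrays against 21.5 and 21.1 on the wild type arrays. It rose by 0.83 ± 0.069 (adjusted p = 0.00081), without overlap, but with normexp background correction the log2 change was 0.20. IAA20 (AT2G46990) rose by 0.49 ± 0.038 (adjusted p = 0.00062), from 104.9 and 109.5 to between 147 and 155; with normexp this became 0.31. Its relative IAA30 (AT3G62100) gave 214 to 221 on the mutant arrays against 221 and 247, and did not pass (log2 change -0.10, adjusted p = 0.17). IAA30 was called lower with quantile normalization (-0.18, adjusted p = 0.046), in the authors' value table (-0.18, adjusted p = 0.044) and without wild type array 1 (-0.18, adjusted p = 0.040). IAA31 (AT3G17600) was well above background on both wild type arrays and on 2 of the 3 mutant arrays. Its mutant signals of 35.3, 38.6 and 24.5 spanned the wild type signals of 29.2 and 27.1, with a log2 change of 0.20 (adjusted p = 0.47). The missing call rested on Atino80-5 array 3, the array alone on slide 2: without it, and with the slide as a block, the log2 change was 0.39 (adjusted p = 0.017), while with normexp it was -0.0041. IAA34 (AT1G15050) signals overlapped as well, at 84.4 and 96.1 against 89.8 to 105.0.

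**Figure D2:**
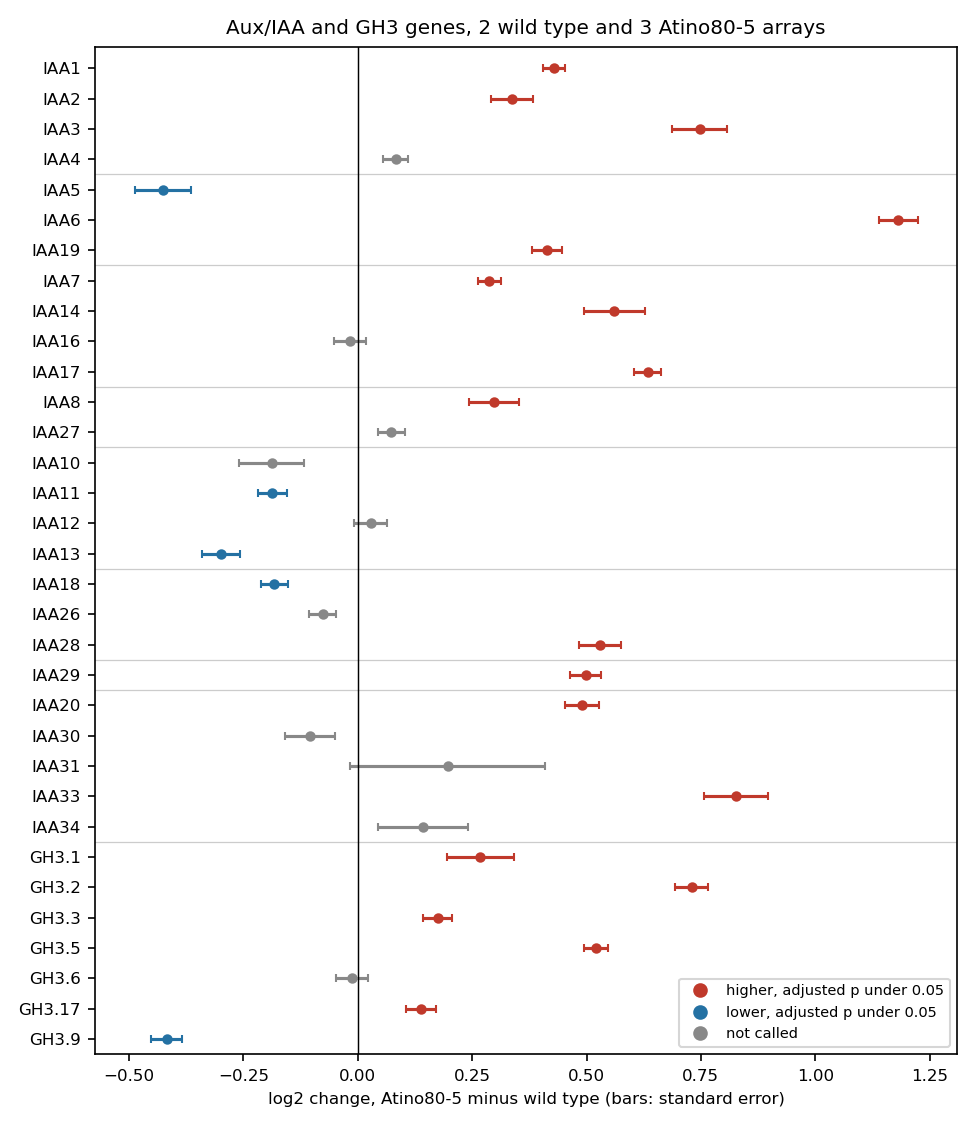
Log2 change (Atino80-5 minus wild type) of the 26 Aux/IAA and 7 GH3 genes tested, as points with bars of 1 standard error, in groups of related genes separated by grey lines. Red points are the 18 genes called higher, blue the 5 called lower and grey the 10 not called; IAA10 to IAA13 have no red point.

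Among the 7 GH3 genes tested, 5 were higher, 1 was lower and 1 was not called. That is 71.4% higher and 14.3% lower, against 30.5% and 26.7% of all genes. GH3.2 (AT4G37390, BRU6), an auxin-conjugating enzyme, had signals of 388.3, 371.5 and 377.9 on the mutant arrays against 223.5 and 233.7 on the wild type arrays. It rose by 0.73 ± 0.036, or 1.66-fold (adjusted p = 0.00019), without overlap. With normexp its rise was 0.49, just below the limit of the stricter rule. GH3.5 (AT4G27260, WES1), whose enzyme also accepts salicylic acid, had signals of 4440 and 4374 against 6319, 6271 and 6372, a rise of 0.52 ± 0.026 (adjusted p = 0.00018). The 3 mutant arrays lay close together and well above wild type.

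The other GH3 calls were small. GH3.1 (AT2G14960), GH3.3 (AT2G23170) and GH3.17 (AT1G28130) rose by 0.27 ± 0.072, 0.17 ± 0.031 and 0.14 ± 0.032. GH3.1 was dim, with signals of 29.0 and 30.5 against 34.3 to 39.0, and its change was 0.056 with normexp (adjusted p = 0.25) and 0.13 with quantile normalization (adjusted p = 0.095). GH3.1 and GH3.17 each lost the call under 10 of 22 overlapping alternatives, and GH3.3 under 3. GH3.6 (AT5G54510, DFL1), which shortens hypocotyls in light when overexpressed, was not called: signals of 13186 and 13505 overlapped with 12815 to 13460 (log2 change -0.01, adjusted p = 0.79). GH3.9 (AT2G47750), linked to primary root growth, fell. Its signals were 217.6, 222.5 and 210.5 on the mutant arrays against 291.8 and 287.4, a log2 change of -0.42 ± 0.035 (adjusted p = 0.00078).

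**Figure D3:**
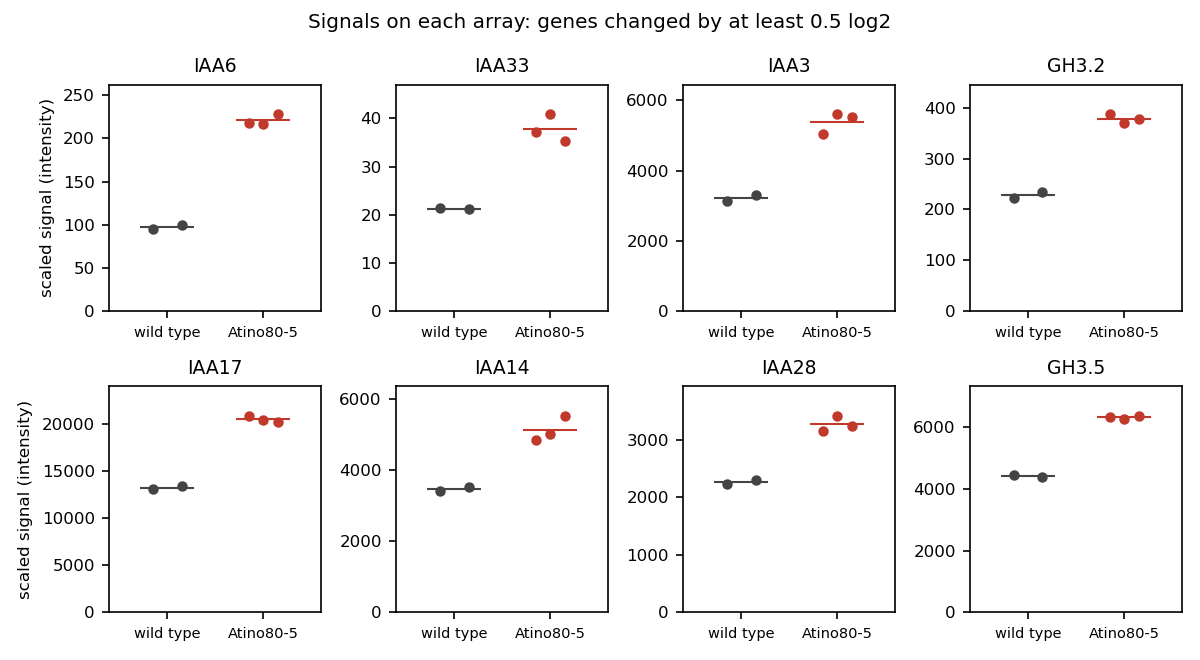
Scaled signal on each array (points; linear axes from 0) and group mean (lines) for the 8 members called with a log2 change of at least 0.5, in 2 wild type and 3 Atino80-5 arrays. In each panel the mutant arrays lie above both wild type arrays, from IAA6 (95 to 100 against 216 to 228) to GH3.5 (4374 to 4440 against 6271 to 6372).

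Among the tested Aux/IAA genes, 3 pairs are direct neighbours, with 0 protein-coding genes between them in the TAIR10.1 annotation. Both genes of each pair were called higher. IAA3 and IAA17 rose by 0.75 and 0.63, IAA14 and IAA1 by 0.56 and 0.43, and IAA2 and IAA7 by 0.34 and 0.29. The partners belong to different groups of related genes described above. Whether adjacent genes elsewhere moved as much together was not tested.

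For 10 members more than 1 probe was kept, and for 9 of them the probes had changes of the same sign. The probes of IAA17 gave 0.63 and 0.64, those of IAA2 0.34 and 0.37, those of IAA14 0.56 and 0.65 and those of GH3.9 -0.42 and -0.46. For GH3.5 the brighter probe gave 0.52 and the other probe 0.79 ± 0.052 (adjusted p over probes = 0.00039), from 3584 and 3669 to between 5944 and 6597. For IAA7 a dimmer probe, named for another transcript (NM_202626), had overlapping signals of 230 to 253 and 246 to 264 and did not pass (log2 change 0.07, adjusted p over probes = 0.38). For IAA18 the brightest probe gave -0.18 and another -0.28 (adjusted p over probes = 0.036). Its remaining probe gave -0.10 and did not pass (adjusted p over probes = 0.19).

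IAA13 was the member whose probes went opposite ways. The probe named for the transcript NM_001124962 gave 24.01, 27.98 and 31.5 on the mutant arrays against 29.1 and 11.7, with 1 of the 2 wild type arrays well above background. Its log2 change of 0.58 ± 0.41 did not pass (adjusted p over probes = 0.28). The mean of both probes turned the gene's value to 0.14 (adjusted p = 0.58). Probe sequences were not used here, and signal shared between related genes was not tested.

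**Figure D4:**
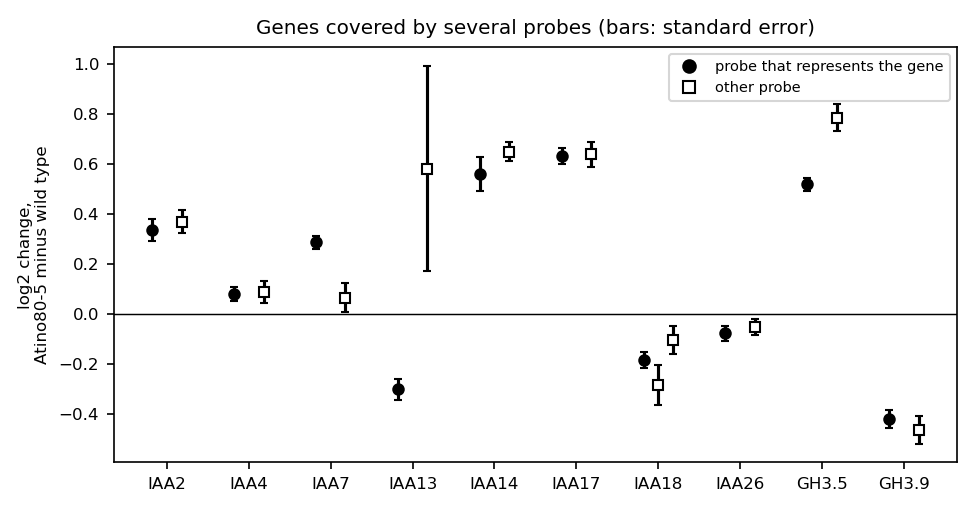
Log2 change of each kept probe for the 10 members with more than 1, with bars of 1 standard error; filled circles mark the probe that represents the gene and open squares the others. The probes of IAA17 nearly coincide at 0.63 and 0.64, and those of IAA13 lie on opposite sides of 0, at -0.30 and 0.58.

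Other genes of the auxin pathway and GH3 genes outside the set, together called other pathway genes below, were called in both directions. These GH3 genes were listed by gene family, whether or not they act on auxin. Of 43 tested, 15 were higher and 12 lower, or 34.9% and 27.9%, near the 30.5% and 26.7% of all genes. With median scaling the balance turned, to 13 higher and 16 lower. Of the 6 TIR1/AFB receptor genes, 2 were higher and 1 lower. The receptor gene AFB4 rose by 0.44 ± 0.032, AFB2 rose by 0.13 and AFB5 fell by 0.11. AFB2 lost its call under 10 of 22 overlapping alternatives and AFB5 under 17. TIR1, AFB3 and the gene of AFB1 were not called, with log2 changes from -0.09 to 0.09.

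Among 15 ARF genes tested, 6 were higher and 3 lower. The repressor-type genes ETT (ARF3) and ARF4, which act in organ polarity, rose by 0.63 ± 0.047 and 0.58 ± 0.042. NPH4 (ARF7), an activator in tropic bending and lateral root formation, fell by 0.18 ± 0.026 but was not called with the mean of its probes (log2 change -0.09, adjusted p = 0.088). ARF11 fell by 0.68 ± 0.058. Of the 5 TOPLESS co-repressor genes, TPR3 rose by 0.61 ± 0.040, TPR1 by 0.17 ± 0.033, and WSIP2 (TPR4) fell by 0.70 ± 0.036; TPR1 turned to -0.08 with the mean of its probes.

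Of 8 GH3 genes tested outside the set, 4 were lower, or 50%, against 26.7% of all genes. A further 2, AT1G48660 and AT1G48670, were counted as higher, but each was well above background on 1 of the 2 wild type arrays and entered the test through the mutant arrays. Their signals were dim, at 12.9 to 23.0 in wild type and 36.7 to 53.3 in the mutant. AT5G13370 had signals of 1696, 1811 and 1693 on the mutant arrays against 5529 and 5523 on the wild type arrays. It fell by 1.67 ± 0.041, or 3.19-fold (adjusted p = 4.1e-05), a larger change than that of any member. DFL2 fell by 0.47 ± 0.030, and AT5G51470 fell by 0.74 ± 0.052. Of 9 auxin amidohydrolase and oxidase genes, 3 were higher and 3 lower. AT1G14120 rose by 1.29 ± 0.030, or 2.44-fold, from 1927 and 1941 to between 4629 and 4816.

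**Figure D5:**
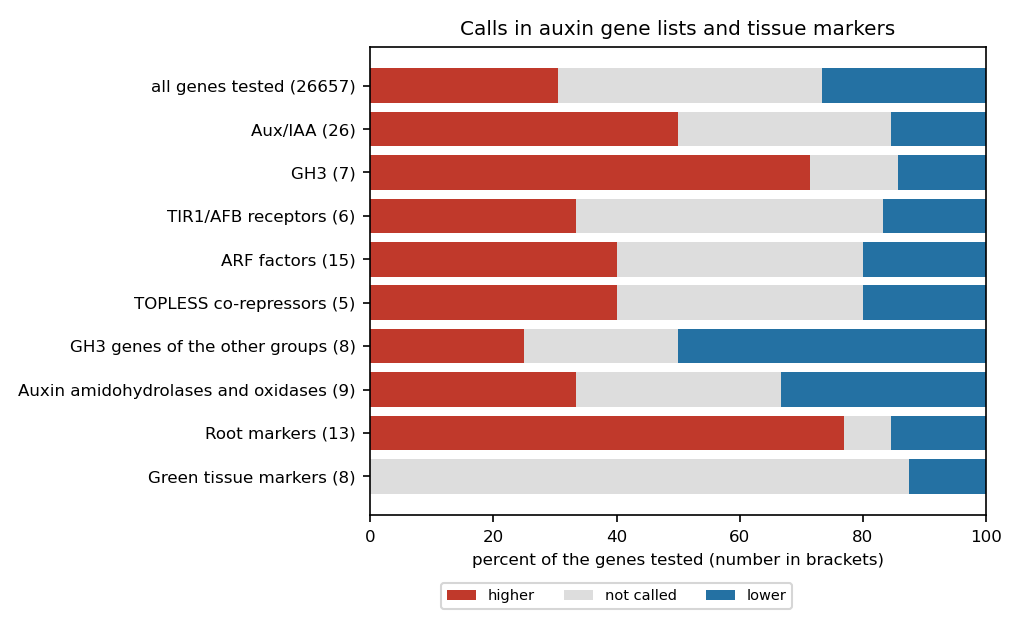
Percent of the genes tested that were called higher (red), lower (blue) or not called (grey) at an adjusted p under 0.05, for all genes, the Aux/IAA and GH3 genes, other auxin and GH3 gene lists and tissue markers, with the number tested in brackets. Aux/IAA genes were 50% higher and 15.4% lower, against 30.5% and 26.7% of all genes.

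Most root markers were higher in the mutant, but not all. Of 13 markers of root hairs, endodermis and root meristem, 10 were higher, 2 lower and 1 not called, with a median log2 change of 0.84. The summed signal of the 13 markers, in units of the array's 75th percentile, was 3.021 and 3.105 in wild type and 3.627 to 3.653 in Atino80-5. Such a sum adds different probes, so bright ones weigh more and it is no measure of root signal in general. CASP1, a bright marker, went from 1864 and 2106 to between 3785 and 3982. The 2 lower markers were WOX5 and SCR. WOX5 had the largest change of the 13 (log2 change -1.499), from 370 and 356 to between 123 and 138. SCR, the brightest of the 13, went from 7707 and 7672 to between 6917 and 7235 (log2 change -0.119). Of 8 photosynthesis markers of green tissue, 0 were higher, 1 was lower and 7 were not called (summed signal 1018 and 1031 against 939 to 968). Markers of both tissues were above background in both genotypes, with PLT1, 1 of the 10 root markers counted as higher, above background on 1 of the 2 wild type arrays. The part of root markers in the changes of the Aux/IAA and GH3 genes was not tested.

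Facts of the arrays set the precision. Between 77.3% and 81.6% of the 43603 probes were well above background on each array, and no probe was saturated. Slide 1 held 2 arrays of each genotype, and the remaining Atino80-5 array was alone on slide 2. Within slide 1 the members called were 18 higher and 5 lower of 33, with 9 higher by at least 0.5. Of all 26657 genes tested, 7463 were higher and 6443 lower in that fit.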

How the data were processed

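RNA of 2 wild type and 3 Atino80-5 seedling samples was measured on 1-colour arrays. Per the file headers, the deposited scanner files hold an intensity per spot that Agilent Feature Extraction 10.7.3.1 had background-subtracted and detrended; per the submitters' processing notes the version was 9.1. The authors' value table holds log2 values, which correlated at 0.9994 or more with each array's log2 processed signal; its scaling is not given in the sources used here, it has no direction of its own, and its column medians were 9.6208, 9.6213, 9.6216, 9.6213 and 9.6213. It served as an alternative.

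The 1417 control spots and the 7 to 14 outlier spots per array were left out. Log2 processed signals were scaled by subtracting each array's 75th percentile (4461 to 4794 before scaling), and spots of a probe were averaged. Probes well above background on at least 2 of 5 arrays were kept (35203 of 43603), and the brightest probe represented a gene. Accessions were matched to the RefSeq gene table of TAIR10.1 (34285 probes to 1 locus, 9318 to none). The match grouped probes into genes and gave names and neighbours. Probes without a locus were grouped by their accession. The array was designed on another build.

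Genotypes were compared with limma 3.58.1 in R 4.3.3 (lmFit, eBayes; 4.55 total degrees of freedom), tested on simulated data, with p-values adjusted by Benjamini and Hochberg over all genes and a threshold of 0.05. The number of arrays limits precision. Every member could be named; values of each array are given for members called with a log2 change of at least 0.5 or with probes of opposite sign, and for others as chosen after their values were seen. Of each other list, at most 4 called genes with the smallest p are named. TIR1, AFB3, AFB1, AT1G48660, PLT1, WOX5, SCR and CASP1 were named after their values were seen. The members and lists were chosen with earlier results of these data known. A total of 22 alternatives were run. For normexp the median spot signal was used, since it is the foreground column at hand. Replicate numbers are shared by the genotypes, and the labels do not say whether same-numbered samples were prepared together.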

Additional observations from a re-analysis of the deposited data

How the results depend on the processing

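The 22 alternatives overlap, since several are the same or nearly the same fit. Over them, 14 of the 18 members called higher and 3 of the 5 called lower kept direction and call throughout. The members higher by at least 0.5 numbered 6 with normexp and 6 with median scaling. Without 1 array, 14 to 18 members were higher, 5 lower, and 7 to 9 higher by at least 0.5; the lowest count came without wild type array 2, where the lone wild type array was assumed to vary like the others. The median log2 change of Aux/IAA genes was 0.198 to 0.291 without 1 array (0.272 and 0.211 without wild type array 1 or 2, with or without holding probes), 0.151 with normexp, 0.186 with median scaling, 0.288 with probes above background on all arrays, 0.187 with the mean of probes, 0.263 with array weights and 0.291 with the slide as a block and within slide 1. That of GH3 genes was 0.149 to 0.201 without 1 array, 0.132 with normexp, 0.125 with quantile normalization, 0.118 with median scaling, 0.157 without a filter and 0.123 in the authors' table; the cause was not tested. Median scaling moved the median of all genes to -0.05 and the share of higher among all calls from 53.3% to 42.8%, and left 16 members higher and 7 lower; of the other pathway genes 13 were then higher and 16 lower.

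With the replicate number as a block, 17 members were higher and 4 lower, and the Aux/IAA median was 0.291. In that fit 5 other pathway genes were lower and 1 root marker was lower. Same-numbered arrays deviated together with correlations of 0.038 and 0.005. With 2 wild type arrays these values cannot show whether same-numbered samples were prepared together. The block lost the calls of IAA11 (-0.17, adjusted p = 0.063), GH3.3, GH3.17, AFB2, AFB5, NPH4, TPR1 and the amidohydrolase gene ILL6, and called IAA31 (0.39, adjusted p = 0.049). Without 1 array, 9 to 16 other pathway genes were higher and 6 to 11 lower (12 in all arrays), and 1 or 2 root markers lower; 1 root marker was lower without a filter, with the mean of probes and with the slide as a block or alone.

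Signs turned mostly for uncalled members near 0: IAA27 and IAA31 with normexp (-0.0049 and -0.0041), IAA16 with quantile normalization and in the authors' table (0.022 and 0.021), IAA12 with median scaling (-0.028), and GH3.6 with quantile normalization (0.022), the authors' table (0.023), the slide or replicate block and slide 1 alone (0.011 each), or without 1 array (-0.029 to 0.011, and 0.0050 without wild type array 1). The exceptions were called: IAA13 (0.142) and TPR1 (-0.080) with the mean of probes.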
